A study of Mus musculus with 2 samples.

Results

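Splicing of messenger RNA was examined through the genes of its core machinery in the mouse eye lens. The set holds every gene on the array whose symbol places it among the heterogeneous nuclear ribonucleoproteins (Hnrnp or Hnrp), the small nuclear ribonucleoprotein proteins (Snrp), the SR proteins (Srsf or Sfrs), the splicing factors 3a and 3b (Sf3a, Sf3b) or the pre-mRNA processing factors (Prpf). These were 55 genes measured by 64 probes, of 13709 named genes in all. The classes held 16 hnRNP, 12 snRNP, 9 SR, 8 SF3 and 10 PRPF genes. They were taken by symbol alone, although earlier results of these data were known when the set was chosen. The RNA came from 2 lens samples of 13-day-old mice, 1 of cortical fiber cells and 1 of the epithelium that stays attached to the capsule on dissection, and each was read on 1 array. The design names 5 mice. The sources used here do not give their genotype, strain or treatment, nor whether their lenses were pooled. The free-text description attached to both samples speaks of fetal liver, whereas the titles, source names and design name the lens.

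Splicing removes introns in the nucleus. The U1 and U2 snRNPs recognise the ends of an intron, the U4/U6.U5 tri-snRNP then joins, and rearrangements led by PRPF proteins and helicases produce the active spliceosome. SR proteins bind exons and commonly promote the use of nearby splice sites, while hnRNP proteins coat the transcript and often, though not always, act against such use. Lens fiber cells arise from epithelial cells, fill with crystallins and lose their nuclei as they mature, and with them the site of splicing.

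Levels below are normalized intensities, where 1 is about the median of an array, and a difference is log2 cortex minus log2 epithelium. A floor was set at 0.5 of the array median. The rule of size for calling a gene higher in a sample asked for a 3-fold or larger difference and a level there no lower than the array's median. There is 1 array a group, so no test, SD or p-value across samples was possible. The only spread that could be computed is that between different probes of 1 gene on the same arrays. Over 558 genes it had a median SD of 0.59 and a pooled SD of 1.10 in log2 difference. It holds no variation between animals or arrays. On such bulk samples, fewer cells of a type and less RNA per cell cannot be told apart, and the small number of arrays limits how precise any value can be.

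The tissue labels were set against marker genes. By the 3-fold rule 9 of 11 fiber markers were higher in cortex, and all 7 epithelial markers were higher in epithelium. Liver transcripts were near the floor, with a highest value of 0.888 over 6 genes and both arrays. Of 4 genes of red blood cells, which fetal liver makes, Hbb-bh1 and Slc4a1 lay under the floor on both arrays. Hba-a1 stood at 1.39 in cortex and 1.79 in epithelium, and Epb42 at 2.09 and 0.678, which is 3.08-fold higher in cortex. Proliferation markers summed to 13.2 in cortex and 117 in epithelium, with 9 of 10 higher in epithelium. Ciliary body markers summed to 17.2 and 139 (3 of 7 higher in epithelium, Zic1 at or below 0.02 on both arrays), and pigment cell markers to 5.48 and 14.9 (2 of 7 higher in epithelium and 1 in cortex, Tyr under the floor on both arrays). The part of proliferating, ciliary or pigment cells in the differences below was not tested.

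Splicing genes were mostly somewhat dimmer in cortex than in epithelium. Of the 55 genes, 50 were above the floor on both arrays, and 39 of these 50 (78.0%) were lower in cortex, against 49.0% of 8351 genes over the whole array. The median difference over all 55 genes was -0.60, against 0.00 over all 13709. Most differences were small, since 29 of the 50 were under 2-fold. By the 3-fold rule 8 genes were higher in epithelium (14.5%, against 8.17% of all genes) and 3 in cortex (5.45%, against 9.41%). The remaining 44 did not pass, among them 4 that lay under the floor on both arrays (Hnrnpul1, Sf3a1, Sf3a2 and Sf3b1) and 1, Srsf2, above it in cortex alone. These 4 were counted with a difference of 0, although their true difference is not known. The split depended on the scaling, for the members as for the whole array. Cortex took 27.3% of the members' calls with the deposited scaling, against 53.5% of the calls over all genes. These shares were 13.3% against 46.6% after quantile normalization, 14.3% against 54.1% after loess on brightness and 3.57% against 17.1% after centring on ribosomal protein genes. Snrpc, whose probes disagree, is among the cortex calls in each. Without it the genes higher in cortex and in epithelium numbered 2 and 8 with the deposited scaling, 1 and 13 after quantile normalization, 1 and 12 after loess and 0 and 27 after ribosomal centring. Over all genes 8.28% were called higher in cortex and 9.48% in epithelium after quantile normalization, 9.21% and 7.83% after loess, and 4.19% and 20.3% after ribosomal centring. At a limit of 2-fold, 5 members were called higher in cortex and 16 in epithelium (16.4% and 15.3% of all genes), and at 5-fold 1 and 1 (5.09% and 3.48%). Centring on ribosomal protein genes lowers every cortex value by 0.93 on the log2 scale. With it the median of all genes measured above the floor on both arrays moved from 0.03 to -0.90.

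**Figure D1:**
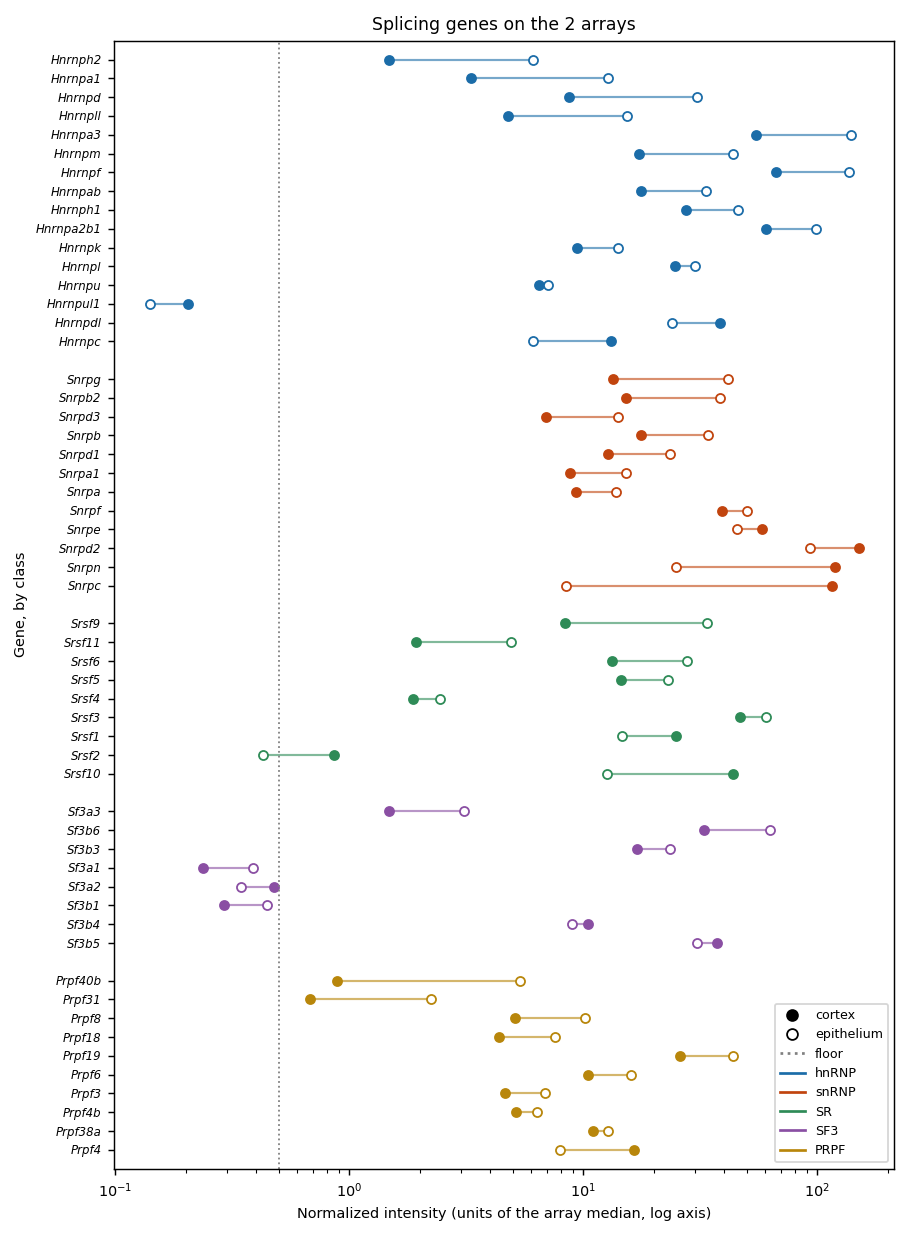
Normalized intensity (log axis, units of the array median) of the 55 splicing genes in cortex (filled) and epithelium (open), 1 array each, grouped by class and ordered by difference, with the floor as a dotted line. Open points lie to the right of filled ones for most genes, while Snrpc (115 against 8.43), Snrpn (118 against 24.97) and Srsf10 (43.8 against 12.7) stand the other way round.

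The members are brighter than most genes, and on these arrays brighter genes tended to be brighter in cortex, so the splicing genes were also set beside genes of equal brightness. Among 2434 other genes whose mean level lay in the members' central range, from 6.12 to 28.8, the median difference was 0.05, 9.29% were called higher in epithelium and 16.4% higher in cortex. Of those above the floor on both arrays, 48.7% were lower in cortex. The members' shares given above also cover members outside this range, among them Prpf40b and Snrpn, so the 2 sets are not alike in brightness. When all other genes were divided into 16 bins of mean brightness, 41 of the 55 members fell below the median of their own bin, 10 lay above it, and the 4 genes under the floor on both arrays stood at it. The median distance from the bin was -0.78 over all members, -1.38 for hnRNP, -0.89 for snRNP, -0.80 for SR, -0.70 for PRPF and 0.00 for SF3 genes. The SF3 value rests on 3 of 8 genes under the floor, counted at 0.00. Of the 5 measured SF3 genes, 3 lay below their bin and 2 above, from -1.80 (Sf3b6) to 0.23 (Sf3b4). The brightest bin is wide and holds many ribosomal protein genes, whose own median was 0.93. A smooth loess curve in place of the bins gave a members' median of -0.81.

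**Figure D2:**
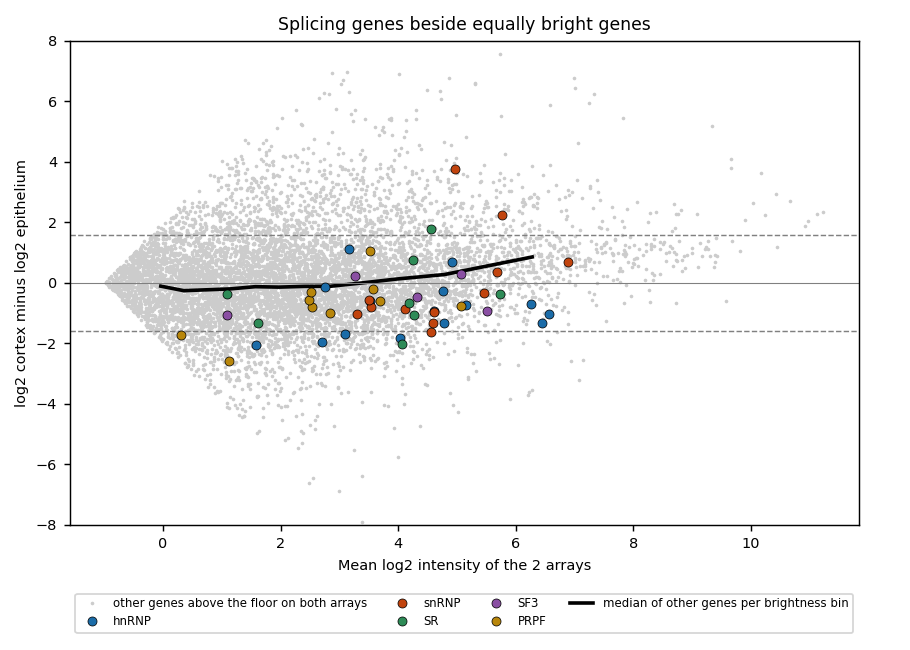
Difference (log2 cortex minus log2 epithelium) against mean log2 intensity for the splicing genes above the floor on both arrays (coloured by class) and other such genes (grey), with the median of other genes in each brightness bin (black line) and the 3-fold limits (dashed). The black line climbs to 0.85 in the brightest bin, and most coloured points lie below it.

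The hnRNP genes were mostly lower in cortex. These proteins package nascent transcripts and take part in splicing, export and stability. Of 15 above the floor on both arrays, 13 were lower in cortex, and 4 of the 16 genes passed the 3-fold rule, all higher in epithelium. The class median was -0.83, and it was -1.49 after quantile normalization, -1.31 after loess and -1.76 after ribosomal centring. Hnrnph2, an X-linked relative of Hnrnph1 that binds G-rich RNA, stood at 1.48 in cortex and 6.08 in epithelium, or 4.12-fold lower in cortex. Hnrnpa1, a founding member of the A/B group that opposes SR proteins at splice sites, stood at 3.32 and 12.7 (3.84-fold). Genes of this group have processed copies in the genome, and which copies its probe can bind is not known here. Hnrnpd (AUF1), a binder of AU-rich elements that govern RNA decay, stood at 8.67 and 30.6 (3.53-fold). Hnrnpll, known for regulating exon choice in lymphocytes, stood at 4.78 and 15.4 (3.21-fold), and its second probe gave 2.09 and 5.72, which is 2.74-fold in the same direction. All 4 kept their call after quantile normalization and after loess. With the mean over probes Hnrnpll had a difference of -1.57 and no longer passed.

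The brightest hnRNP genes were also lower in cortex, but by less than 3-fold. Hnrnpa3 stood at 54.9 in cortex and 139 in epithelium (2.53-fold), and Hnrnpf, an H/F family protein that binds G tracts, at 66.6 and 137 (2.05-fold). For Hnrnpm the levels were 17.3 and 43.5 (2.51-fold). All 3 passed 3-fold after quantile or loess normalization, where bright genes are compared at equal rank or brightness. Hnrnpa2b1 (60.0 and 98.3, 1.64-fold), Hnrnpab (1.90-fold), Hnrnph1 (1.67-fold) and Hnrnpk (1.502-fold) followed. Hnrnpl and Hnrnpu differed by 1.22-fold and 1.09-fold and had nearly equal levels on the arrays. The exceptions were Hnrnpc, whose protein forms the particle that measures the length of nascent RNA, at 13.2 in cortex and 6.08 in epithelium (2.16-fold brighter in cortex), and Hnrnpdl at 38.3 and 24.0 (1.60-fold). Hnrnpc kept this direction in every scaling, but after ribosomal centring its difference was only 0.18, and that of Hnrnpdl was -0.26. Both are smaller in size than the median SD between probes, 0.59.

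The snRNP genes had calls in both directions. The class comprises the Sm proteins, which form a ring around each spliceosomal snRNA, and the proteins particular to U1 and U2. Of the 12 genes, all above the floor on both arrays, 8 were lower in cortex. The 3-fold rule called 1 higher in epithelium (8.33%, against 8.17% of all genes) and 2 in cortex (16.7%, against 9.41%). The class median was -0.68. Both directions had 2 calls after quantile normalization and after loess, and ribosomal centring gave 6 higher in epithelium and 1 in cortex. Over all genes these 3 scalings called 9.48%, 7.83% and 20.3% higher in epithelium and 8.28%, 9.21% and 4.19% in cortex. Set beside equally bright genes, 10 of the 12 lay below the median of their bin. The Sm genes Snrpg, Snrpd3, Snrpb, Snrpd1 and Snrpf were lower in cortex. Snrpg passed the limit (13.4 and 41.6, 3.10-fold higher in epithelium). Snrpd3 (6.91 and 14.1, 2.04-fold), Snrpb (17.6 and 34.2, 1.95-fold), Snrpd1 (12.8 and 23.4, 1.84-fold) and Snrpf (39.1 and 49.9, 1.27-fold) did not. The others of the ring, Snrpe (58.0 and 45.5) and Snrpd2 (150 and 93.0, the brightest member in cortex), were brighter in cortex by 1.27-fold and 1.62-fold. Both turned below 0 under quantile normalization, loess and ribosomal centring, with differences from -0.15 to -0.58, so they have no settled direction.

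Snrpn was the exception among Sm genes. It encodes SmN, a close relative of the SmB proteins made by Snrpb that is abundant in neurons, and it is expressed from the paternal chromosome only. Snrpn stood at 118 in cortex and 24.97 in epithelium, 4.74-fold higher in cortex, while Snrpb differed 1.95-fold the other way. The call of Snrpn held after quantile normalization (3.05-fold) and loess (3.14-fold), and its difference was 2.48-fold after ribosomal centring. A probe assigned to several genes, Snrpn among them, was left out. The protein-coding sequences of Snrpn and Snrpb are alike, and whether their probes tell them apart was not tested.

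Among the proteins particular to U1 and U2, Snrpa (the A protein of U1, 9.29 and 13.7, 1.48-fold), Snrpa1 (8.81 and 15.2, 1.72-fold) and Snrpb2 (15.2 and 38.3, 2.52-fold) were lower in cortex. Snrpb2 passed the limit after quantile normalization (3.67-fold) and loess (3.03-fold). Snrpc, the C protein of U1 that stabilises pairing of U1 with the start of the intron, had 2 probes that went opposite ways. Its brighter probe read 115 in cortex and 8.43 in epithelium, 13.6-fold higher in cortex and the widest difference of the set. The other, designed on the RefSeq transcript, read 16.1 and 32.1, 1.995-fold brighter in epithelium. The direction of Snrpc is therefore not settled, and without its brighter probe the count higher in cortex was 2 and the snRNP median -0.83.

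The promoters of Snrpn and Snrpg, the Sm genes called in opposite directions, and of the SR genes Srsf10 and Srsf9, likewise opposed, are shown as the 120 bases before the start of transcription (RefSeq, GRCm38.p6, gene strand). Snrpn has 4 starts in the table and the first listed is shown, at chr7:60450178-60450297 on the minus strand. The others have 1 each, at chr6:86371420-86371539, chr4:135855951-135856070 and chr5:115327057-115327176, all on the plus strand. Capitals mark letters matching any of 5 motifs on either strand.
Snrpn: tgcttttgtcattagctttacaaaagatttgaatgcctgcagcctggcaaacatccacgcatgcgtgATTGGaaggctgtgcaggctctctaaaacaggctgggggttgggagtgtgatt
Snrpg: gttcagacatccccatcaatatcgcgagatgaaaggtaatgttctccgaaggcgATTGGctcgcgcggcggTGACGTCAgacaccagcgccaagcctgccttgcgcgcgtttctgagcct
Srsf10: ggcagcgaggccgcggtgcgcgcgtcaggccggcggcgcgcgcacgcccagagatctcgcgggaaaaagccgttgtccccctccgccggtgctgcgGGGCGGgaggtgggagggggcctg
Srsf9: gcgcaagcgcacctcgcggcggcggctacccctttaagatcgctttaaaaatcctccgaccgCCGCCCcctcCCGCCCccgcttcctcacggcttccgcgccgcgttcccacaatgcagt
The stretch of Snrpn at the start shown holds 2 CpG dinucleotides and a CCAAT box 53 bases before it. The other starts of Snrpn were not examined, and which start is used in the lens is not known here. That of Snrpg holds 13 CpG, a CCAAT box and a cyclic AMP response element. Srsf10 and Srsf9 hold 19 and 17 CpG with 1 and 2 GC boxes. Both SR promoters are thus CpG-rich. Any link of promoter sequence to the direction of a call was not tested.

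Over whole promoters, from 250 bases before to 50 after the first listed start, 49 of the 55 members had an entry in the RefSeq promoter table used here, and Hnrnpll, Prpf18, Sf3b4, Sf3b5, Snrpb and Snrpd1 had none. A median of 24 CpG was counted in them, against 17 in the promoters of 10948 genes of the array and 7 over all 27025 promoters. The ETS motif CCGGAAG was present in 34.7% of the members' promoters, 13.5% of those of the array's genes and 9.12% of all. For the GC box GGGCGG the shares were 63.3%, 52.8% and 35.9%, and for CCAAT 49.0%, 38.2% and 37.9%. The TATA box TATAAA was found in 12.2%, 11.5% and 14.2%, and the cyclic AMP response element TGACGTCA in 4.08%, 2.69% and 1.88%. Both strands were searched. These matches describe letters in a window, and neither binding nor expression was measured by them.

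SR genes also had calls in both directions, at shares near those of all genes. SR proteins carry an RNA recognition motif and a tail of arginine-serine repeats, and their relative amounts against hnRNP proteins are known to shift exon choice. Of 8 above the floor on both arrays, 6 were lower in cortex. The class median was -0.38. In each direction 1 of the 9 genes passed (11.1%). Over all genes 8.17% passed as higher in epithelium and 9.41% as higher in cortex. Srsf9 had levels of 8.33 in cortex and 33.7 in epithelium (4.04-fold), and its call held after quantile normalization and loess. Srsf10, which acts as a splicing repressor when dephosphorylated after heat shock or in mitosis, stood at 43.8 and 12.7, 3.45-fold higher in cortex. Its direction held in each scaling, but its fold was 2.61 after quantile normalization, 2.90 after loess and 1.81 after ribosomal centring, so that it passed with the deposited scaling alone.

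The other SR genes did not pass. Srsf6 (13.3 and 27.8, 2.09-fold), Srsf5 (14.5 and 23.0, 1.59-fold), Srsf3 (46.8 and 60.5, 1.29-fold) and Srsf4 (1.87 and 2.43, 1.30-fold) were lower in cortex. Srsf11 came closest to the limit, at 1.94 and 4.89 (2.53-fold), with a second probe at 0.797 and 1.62 (2.03-fold). Srsf1, the prototype of the family, stood at 24.8 in cortex and 14.7 in epithelium with its brighter probe (1.69-fold brighter in cortex). A second probe of Srsf1 stood at 1.22 and 3.76, 3.09-fold brighter in epithelium, so its direction is not settled either. Srsf2 was near the floor, with 0.863 in cortex and under the floor in epithelium for one probe, which is at least 1.73-fold, and 0.625 and 0.675 for the other.

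**Figure D3:**
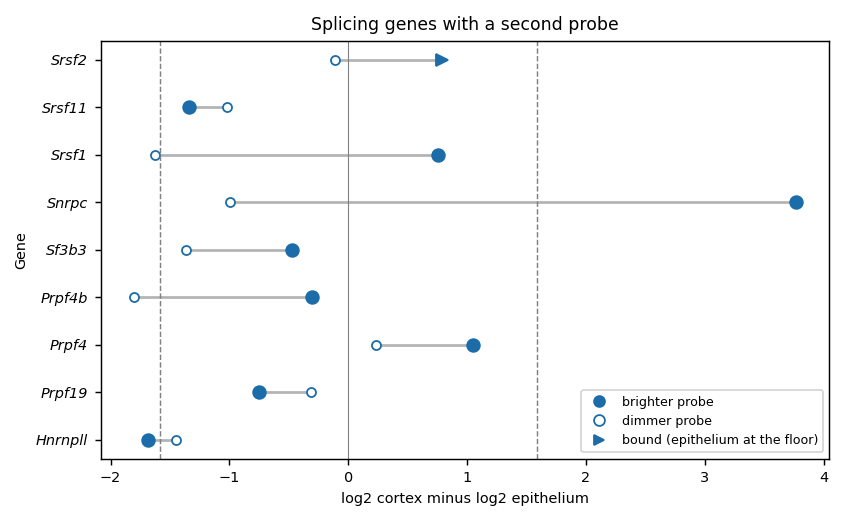
Difference (log2 cortex minus log2 epithelium) of each probe of the 9 splicing genes with a second probe, with the brighter probe filled, a bound drawn as a triangle and the 3-fold limits dashed. Probes fell on the same side of 0 for 6 of the 8 genes measured on both arrays by both probes, and on opposite sides for Snrpc and Srsf1.

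The probe pairs give the only spread available for single members, and it holds no variation between animals, dissections or arrays. For the 8 genes measured by both probes on both arrays, the SD between probes was 1.42 when pooled and 0.60 at the median. Snrpc, with its opposed probes, is among them. Across the array the probes fell on 1 side of 0 for 345 of 558 such genes.

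The splicing factors 3a and 3b, which hold U2 on the branch site of the intron, showed no call in either direction with the deposited scaling. Of 8 genes, 3 were under the floor on both arrays, and these include Sf3b1, whose protein is the central scaffold of the complex (0.292 in cortex and 0.444 in epithelium). Sf3b6 (p14, which lies near the branch point) stood at 32.7 and 63.0 (1.92-fold brighter in epithelium), Sf3b3 at 17.0 and 23.6 (1.39-fold, and 2.57-fold by its second probe) and Sf3a3 at 1.48 and 3.09 (2.09-fold). Sf3b6 passed the limit after quantile normalization (3.15-fold) and ribosomal centring (3.68-fold), and Sf3a3 after ribosomal centring (3.999-fold). Sf3b4 (10.4 and 8.94) and Sf3b5 (37.2 and 30.6) were 1.17-fold and 1.22-fold brighter in cortex. Both turned below 0 after ribosomal centring, and Sf3b5 also after quantile normalization and loess. The class median was 0.00, and -0.47 when taken over the 5 measured on both arrays.

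PRPF genes were lower in cortex in 9 of 10 cases, with a class median of -0.68. Of the 10 genes, 2 were called higher in epithelium (20.0%, against 8.17% of all genes) and 0 in cortex (9.41% of all genes). Prpf40b, a U1-associated factor that bridges the ends of the intron, stood at 0.887 in cortex and 5.35 in epithelium (6.03-fold). Raising the floor to the array median makes this a bound, at least 5.36-fold. Prpf31, a tri-snRNP protein whose human counterpart is a gene of retinitis pigmentosa, stood at 0.680 and 2.24 (3.29-fold), and under the raised floor at least 2.24-fold, which no longer passes. The other tri-snRNP genes were closer to equal. Prpf8, the core of the U5 snRNP and of the catalytic centre, stood at 5.08 and 10.1 (1.99-fold), Prpf6 at 10.5 and 16.0 (1.52-fold) and Prpf3 at 4.63 and 6.83 (1.48-fold), all lower in cortex. Prpf4 was the exception at 16.4 and 7.95, 2.07-fold brighter in cortex, with a dimmer second probe at 0.725 and 0.618. Prpf19, the ubiquitin ligase of the complex that activates the spliceosome, stood at 25.9 and 43.6 (1.68-fold) and its second probe at 2.03 and 2.52 (1.24-fold). Prpf18, a factor of the later catalytic step, differed by 1.74-fold and Prpf38a by 1.16-fold, both lower in cortex. The kinase gene Prpf4b stood at 5.14 and 6.35 (1.24-fold) and its second probe at 1.52 and 5.30 (3.49-fold), both lower in cortex.

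Ribosomal centring lowers every cortex value, so it can end a call in cortex but none in epithelium. Calls were therefore followed through quantile normalization and loess, but both also tended to lower bright genes in cortex. Under each of them the fiber markers called higher in cortex fell from 9 of 11 to 5, while all 7 epithelial markers kept their call. The 8 genes called higher in epithelium passed in both scalings. These were Hnrnpa1, Hnrnpd, Hnrnph2, Hnrnpll, Prpf31, Prpf40b, Snrpg and Srsf9. Of the 3 called higher in cortex, Snrpc and Snrpn passed in both and Srsf10 in neither, and the probes of Snrpc disagree. Of the 50 members above the floor on both arrays, 39 were lower in cortex in all 4 scalings, 5 were higher in all (Hnrnpc, Prpf4, Snrpc, Snrpn and Srsf10) and 6 changed sign (Hnrnpdl, Sf3b4, Sf3b5, Snrpd2, Snrpe and Srsf1). Of the 5, Hnrnpc and Prpf4 had differences of only 0.18 and 0.11 after ribosomal centring. The 39 were all those lower in cortex with the deposited scaling. The members' median, -0.60 there, fell to -1.01 after quantile normalization, -0.81 after loess and -1.53 after ribosomal centring. These scalings therefore made a lower value in cortex easier to keep than a higher one.

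**Figure D4:**
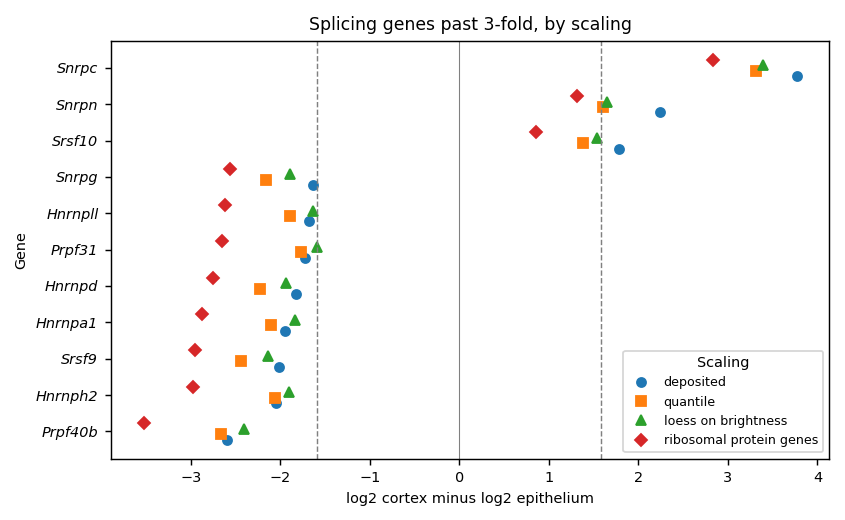
Difference (log2 cortex minus log2 epithelium) of the 11 splicing genes past 3-fold under the deposited scaling, quantile normalization, loess on brightness and centring on ribosomal protein genes, with the 3-fold limits dashed. The 8 genes on the left stay past the limit under each scaling, though ribosomal centring cannot end a call in epithelium. Srsf10 lies between 0.86 and 1.79 and Snrpn between 1.31 and 2.25.

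Other genes of the pathway were called higher in epithelium at shares near that of the array, 8.17%. Among 62 further spliceosome components, 6 were called higher in epithelium (9.68%) and 1 in cortex (1.61%, against 9.41% of all genes), and their median difference was -0.46. Snrnp40, a U5 protein, was at least 13.2-fold higher in epithelium (6.58, under the floor in cortex). Lsm2, of the ring on U6 snRNA (1.38 and 6.60, 4.79-fold), and Cdc40, a factor of the second catalytic step (3.47 and 16.0, 4.60-fold), were higher there too. The exception was Snrnp70, the U1-70K protein that contacts SR proteins, at 962 in cortex and 198 in epithelium (4.87-fold, with 2.27-fold after quantile normalization, 1.99-fold after loess and 2.55-fold after ribosomal centring).

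Regulators of alternative splicing outside these families numbered 32, and 4 of them were called higher in epithelium (12.5%) against 2 in cortex (6.25%), with a median of -0.66. Ptbp1, the polypyrimidine tract binding protein that represses many neuronal and muscle exons, stood at 4.86 in cortex and 27.1 in epithelium (5.58-fold). Its relative Ptbp3 went the other way, at 203 and 28.4 (7.15-fold higher in cortex). Rbfox1, a regulator of neuronal and muscle exons, stood at 5.98 in cortex and near the floor in epithelium (0.502). Under the raised floor its difference was at least 5.99-fold. Tia1, a promoter of weak splice sites and a stress granule protein, stood at 1.29 and 9.74 (7.55-fold higher in epithelium). These 4 calls held in each scaling.

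The list drawn up for SR protein kinases had a median of -0.07, with 1 of 9 genes called (11.1%). That gene was Topors (0.882 and 3.17, 3.596-fold higher in epithelium), which is not itself a kinase, and no kinase in the list was called. Srpk2 was 2.18-fold and Clk4 1.96-fold brighter in cortex, and Clk2 1.77-fold brighter in epithelium. Of 15 genes of the SMN complex and snRNP assembly, 1 was called in each direction (6.67%), with a median of -0.65. Coil, which encodes the Cajal body protein coilin, stood at 43.9 in cortex and 11.8 in epithelium (3.71-fold, with 2.83-fold after quantile normalization, 3.14-fold after loess and 1.94-fold after ribosomal centring, so that it passed with the deposited scaling and loess alone). Sart3, which recycles U4/U6, stood at 0.906 and 3.38 (3.73-fold higher in epithelium), while Gemin5 (2.82-fold) and Snupn (2.30-fold) were brighter in epithelium without passing. Snupn lay near the floor in cortex (0.555, and 1.28 in epithelium). With the floor raised to the array median its difference was at least 1.28-fold.

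**Figure D5:**
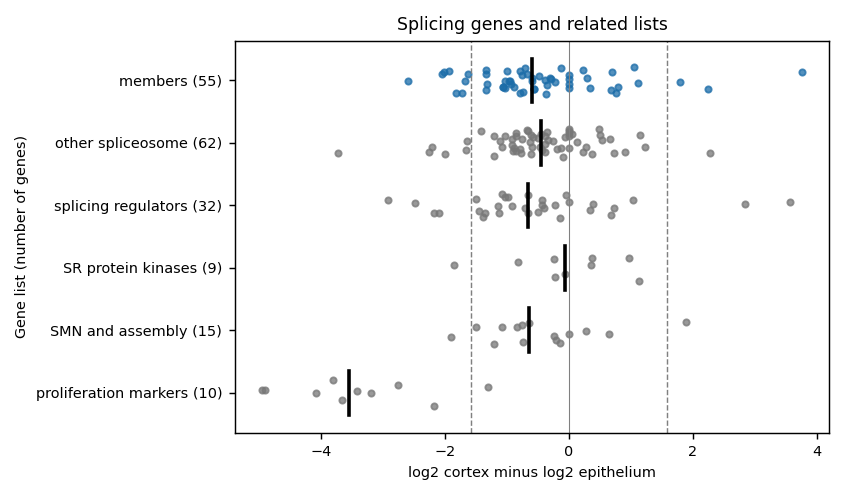
Difference (log2 cortex minus log2 epithelium) of each gene in the splicing set, the related lists and the proliferation markers, with list medians as black bars, the 3-fold limits dashed and vertical scatter added for legibility. The splicing set centres on -0.60, the other splicing lists between -0.66 and -0.07, and the proliferation markers on -3.54.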

How the data were processed

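Poly(A) RNA was copied into biotin-labelled RNA and read on 1-colour CodeLink mouse arrays, per the labels' protocols. The authors' deposited table holds 1 linear intensity per probe and array for 19819 probes, with array medians of 0.998 and 0.998 and some values below 0. The sources used here do not state the background and scaling steps. Probes were named through the platform annotation (15120 with 1 symbol, 38 with several, 4661 with none), and all 55 members matched the RefSeq gene table by Entrez identifier. Probes lacking a value (87 for cortex and 97 for epithelium) were left out.

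Values were raised to the floor (0.499 on both arrays), log2 was taken, and the probe with the highest mean log2 value stood for a gene. Members were named if past 3-fold, among the 4 largest differences per class and direction, among the 2 brightest of their class or measured by several probes. From other lists up to 4 genes were named. Further members are given for completeness. The members and lists were chosen with earlier results of these data known. The calling procedure was run on simulated data as a check of the code. The simulated noise was smaller than the spread between probes, so it gives no error rate for these calls. Alternatives were quantile normalization, loess (span 0.3), ribosomal centring, other floors, probe averaging, fold limits of 2 and 5 and, added after seeing the data, omission of 1 Snrpc probe. Python 3.11.15, numpy 2.4.6, pandas 2.3.3, statsmodels 0.14.6 and matplotlib 3.10.9 were used.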

Additional observations from a re-analysis of the deposited data

How the results depend on the processing

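The count of splicing genes higher in epithelium, 8 with the deposited scaling, became 13 under quantile normalization (9.48% of all genes) and 27 under centring on the ribosomal protein genes (20.3% of all genes), and the count higher in cortex went from 3 to 1 after that centring (4.19% of all genes). With a fold limit of 2 the counts were 16 and 5 (all genes 15.3% and 16.4%), and with a limit of 5 they were 1 and 1, Prpf40b and Snrpc (all genes 3.48% and 5.09%). The members' median went from -0.60 to -1.53 after ribosomal centring, which moves every measured gene by the same amount. The hnRNP and SR medians were -1.49 and -1.03 after quantile normalization. After ribosomal centring the medians were -1.76 for hnRNP, -1.61 for snRNP, -1.31 for SR, -0.68 for SF3 and -1.61 for PRPF. Quantile normalization gave the members a median of -1.01 and loess one of -0.81, the SR median was -0.83 under loess and the SF3 median -0.54 with no floor. The distance from equally bright genes ranged from -0.78 to -0.89 over the alternatives. Leaving out the brighter Snrpc probe, chosen after seeing the data, gave 2 genes higher in cortex and 8 in epithelium. No paired analysis was possible because each group has 1 array. Genes near the floor, among them Srsf2 and 3 of 8 SF3 genes, have no usable difference, and signal over background limits them.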
